A study of Homo sapiens with 6 samples.

Results

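The genes of the WNT pathway were followed in HEK293T cells treated with valproic acid (VPA). They were chosen by symbol and comprised the WNT ligands, the R-spondins, the frizzled, LRP5, LRP6 and LGR4 to LGR6 receptors, the secreted inhibitors, cytoplasmic and nuclear transducers, and target or feedback genes. Of the 47470 genes listed in the count files, 64 were members, and 54 of these had enough reads to be tested. Both groups were HEK293T, an established cell line of human embryonic kidney origin. The labels call the untreated group wild type with no treatment, and the other group received VPA, a drug that inhibits histone deacetylases, at 1 mM for 1 day. Each group had 3 libraries of strand-specific mRNA. No source used here says whether these came from separate cultures, so the p-values measure the spread between these libraries, which may be technical.

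WNT proteins are secreted lipid-modified ligands that bind a frizzled receptor together with the co-receptor LRP5 or LRP6. Without a ligand, a complex built on AXIN1 lets the kinase GSK3 mark beta-catenin, the product of CTNNB1, for breakdown. With a ligand, beta-catenin accumulates and acts with the TCF and LEF factors at target genes, several of which, such as AXIN2, NKD1, RNF43 and ZNRF3, restrain the signal in turn. DKK1 blocks LRP5 and LRP6, whereas SFRP proteins and WIF1 bind the ligands themselves. R-spondins act through LGR4 to LGR6 and keep frizzled receptors at the surface. In the embryonic kidney, WNT signals pattern the ureteric bud and the nephron progenitors.

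Depth differed little between the libraries, with 18622267 to 18828495 reads on genes. The 8 genes taken as markers of the line, among them VIM, KRT18, PAX2 and NEFM, were all counted and summed to 930.4 to 959 CPM (counts scaled for library size) in untreated libraries and 1140.4 to 1211 in VPA-treated libraries. Among these markers VIM was lower with VPA, at a log2 fold change of -0.27. KRT8, NES, PAX2 and NEFL were higher, at 1.37, 2.01, 2.26 and 1.06, and KRT18, LHX1 and NEFM were higher by less. Marker lists of blood, endothelium and liver each summed to at most 2.05 CPM in any library. The 3 fibroblast markers COL1A1, DCN and LUM summed to 23.0 to 25.8 CPM in untreated and 79.6 to 88.6 in VPA-treated libraries, and their part in the results was not tested. In bulk RNA, a change in the share of cells and a change in RNA per cell cannot be told apart.

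The comparison of VPA-treated with untreated cells asked which pathway genes changed their expression after deacetylase inhibition. In VPA-treated cells 22 members were up-regulated, which means an adjusted p under 0.05 in edgeR's quasi-likelihood test with a log2 fold change of 1 or more, and 0 were down-regulated. Among all 15298 tested genes 12% were up-regulated and 0.503% down-regulated. The up-regulated members were 11 WNT ligands, 3 R-spondins, 6 secreted inhibitors, DACT3 and NKD1. At the adjusted p alone 37 members were higher and 9 lower, against a background of 32.9% higher and 30% lower genes. No member reached a log2 fold change of -1 at an unadjusted p under 0.05 either (0 genes), and DESeq2 also called 0. The lower members were WNT5A, FZD5, FZD7, FZD8, LGR4, AXIN1, CTNNB1, GSK3A and TCF7L2. Every VPA-treated library lay above every untreated library in 37 members and below in 9, against 34.8% and 31% of all tested genes.

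**Figure D1:**
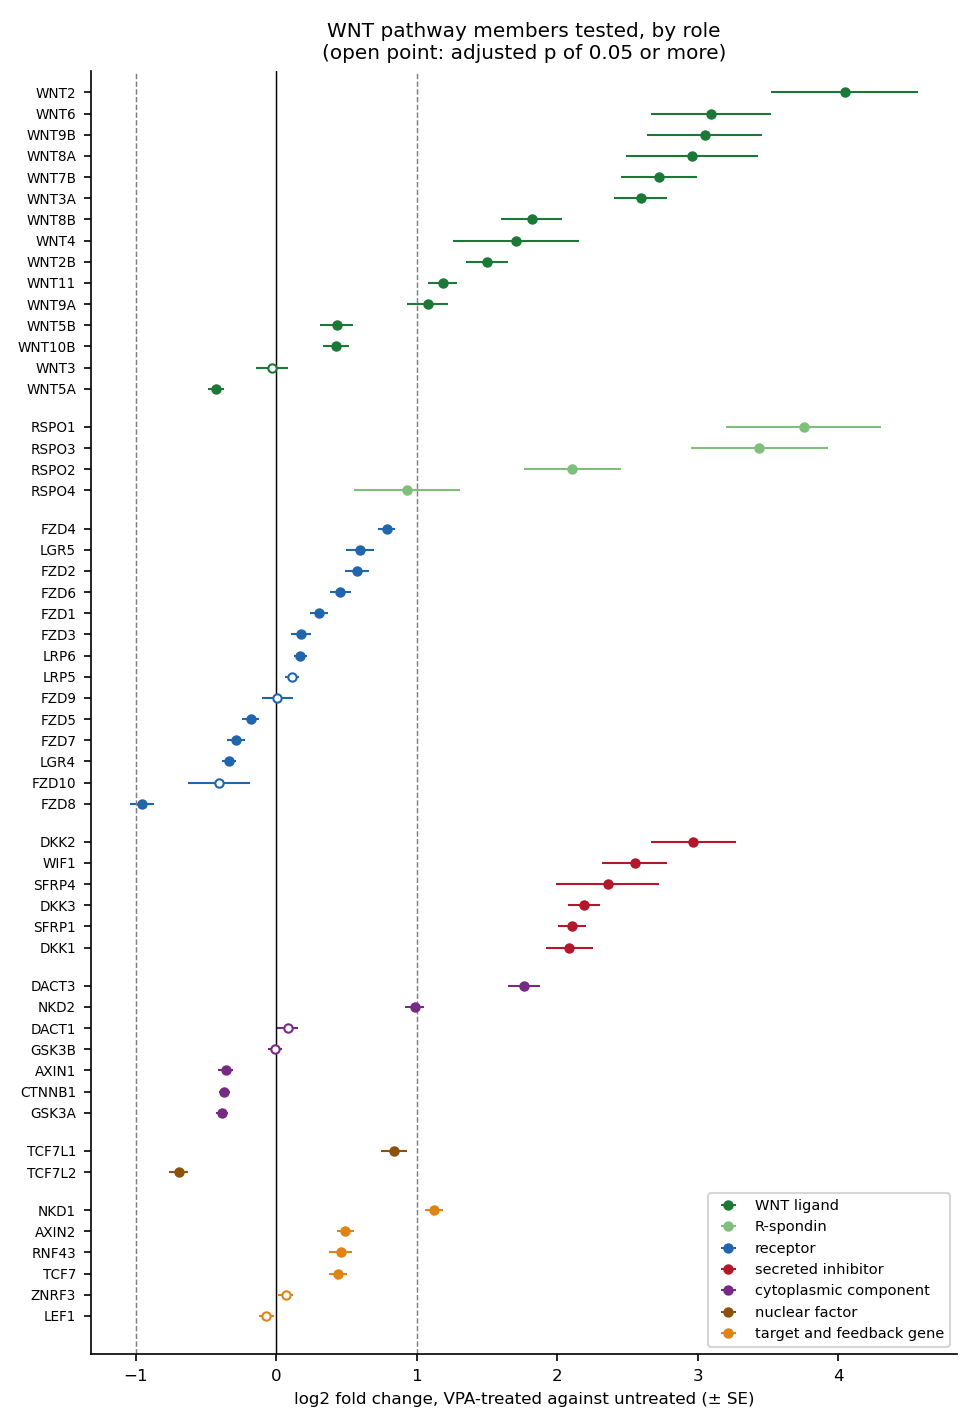
Log2 fold change of the 54 tested members in VPA-treated against untreated cells, with the standard error as a bar, grouped by role and sorted within each role; open points have an adjusted p of 0.05 or more in edgeR and the dashed lines mark -1 and 1. The 6 tested secreted inhibitors lie between 2.09 and 2.97, while the 14 tested receptors lie between -0.96 and 0.79.

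The filter on low counts bears on these numbers. Of the 54 tested members 13 passed it in all 3 VPA-treated libraries but in fewer than 3 untreated ones, which favoured a higher treated level. Of the 22 up-regulated members 12 were among these. A threshold that ignores the group, a mean of at least 50 normalized counts over the 6 libraries, left 39 members, of which 9 were up-regulated (23.1%, against 7.56% of the 12196 genes at that level), 0 down-regulated (against 0.197%), 23 higher (59%, against 30.9%) and 9 lower (23.1%, against 36%). Normalized counts are counts scaled by TMM to the mean library. The median log2 fold change followed the level, with 2.72 in the 15 tested members under a mean of 50 normalized counts, 1.50 in the 11 from 50 to 200, 0.42 in the 21 from 200 to 1000 and -0.34 in the 7 above 1000. In the same order 13, 8, 1 and 0 of these were up-regulated, against 29.4%, 24.3%, 5.78% and 0.732% of all tested genes at that level, and 0 down-regulated in each, against 1.71%, 0.37%, 0.195% and 0.108%. Over all tested genes the medians of the same classes were 0.39, 0.34, 0.011 and -0.15.

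**Figure D2:**
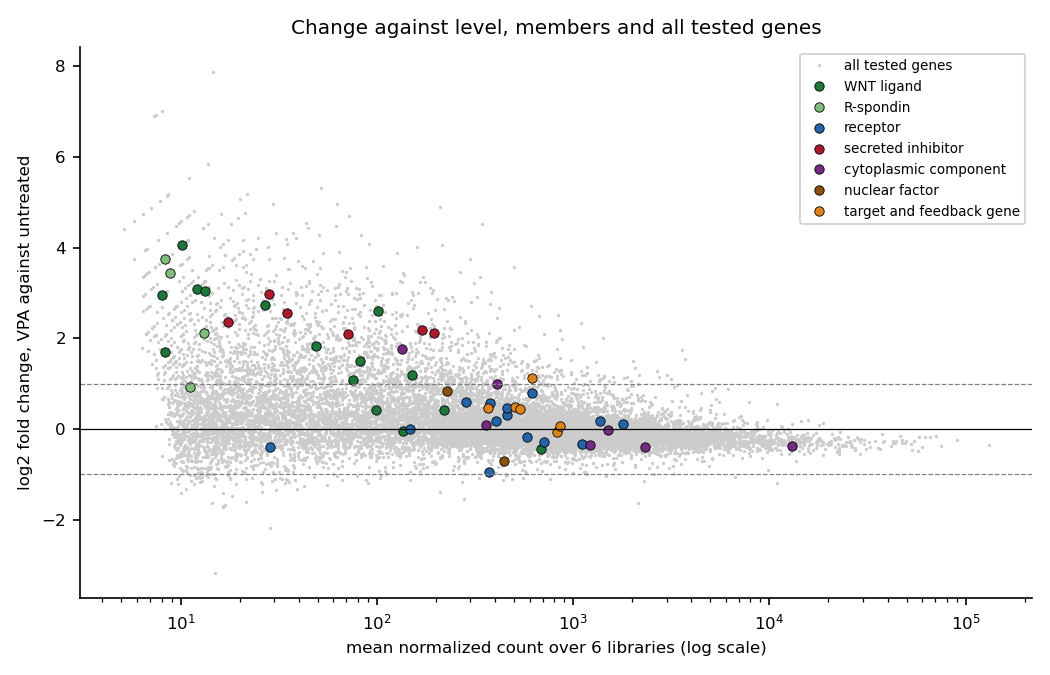
Log2 fold change against the mean normalized count over the 6 libraries (log scale) for all 15298 tested genes in grey and for the 54 tested members by role; dashed lines mark -1 and 1. The members with the largest increases have few counts, and the 7 members above a mean of 1000 lie between -0.39 and 0.17.

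Promoters of the members were read for CpG and for the letters that TCF and LEF factors bind. RefSeq's table for GRCh38.p14 gave a promoter for 46 of the 64 members, and the 250 bases before the start were read, using the first start listed for each gene. CpG dinucleotides numbered 27 at the median in the 15 up-regulated members with a promoter, 24 in the 22 tested members that were not called and 11 over 27305 promoters of the table. The 2 ends of this range among the up-regulated members are printed here, WNT9A with 44 CpG and WNT8B with 3, a count that WNT8B shared with DACT1, which was not called. CpG is in capitals, WNT9A is at chr1:227947933-227948182 on the minus strand and WNT8B at chr10:100462759-100463008 on the plus strand.
WNT9A: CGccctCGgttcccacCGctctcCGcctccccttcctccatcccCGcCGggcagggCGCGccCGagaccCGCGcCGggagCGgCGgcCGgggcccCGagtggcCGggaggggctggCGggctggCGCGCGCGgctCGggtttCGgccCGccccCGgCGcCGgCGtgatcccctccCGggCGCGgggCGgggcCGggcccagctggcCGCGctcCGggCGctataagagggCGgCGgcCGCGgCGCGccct
WNT8B: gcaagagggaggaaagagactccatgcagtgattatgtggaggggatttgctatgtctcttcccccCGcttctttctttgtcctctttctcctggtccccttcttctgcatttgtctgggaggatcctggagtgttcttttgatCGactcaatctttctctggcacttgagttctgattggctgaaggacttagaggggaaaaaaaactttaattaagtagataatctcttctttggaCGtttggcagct
The core letters bound by TCF and LEF factors, CTTTGAT or CTTTGAA on either strand with overlaps counted, were present in 3 of the 46 member promoters (6.52%) and in 6.03% of all promoters. These were SP5 with 3 matches and DKK1 and DACT1 with 1 each. They are shown because SP5 and DKK1 are textbook targets of the pathway, with the matches in capitals. SP5 is at chr2:170715087-170715336, DKK1 at chr10:52314031-52314280 and DACT1 at chr14:58633811-58634060, each on the plus strand.
SP5: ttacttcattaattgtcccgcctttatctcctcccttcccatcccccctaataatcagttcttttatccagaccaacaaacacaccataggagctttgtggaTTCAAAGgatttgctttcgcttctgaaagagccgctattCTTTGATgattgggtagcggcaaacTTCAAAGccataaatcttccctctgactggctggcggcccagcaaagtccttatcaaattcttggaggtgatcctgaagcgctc
DKK1: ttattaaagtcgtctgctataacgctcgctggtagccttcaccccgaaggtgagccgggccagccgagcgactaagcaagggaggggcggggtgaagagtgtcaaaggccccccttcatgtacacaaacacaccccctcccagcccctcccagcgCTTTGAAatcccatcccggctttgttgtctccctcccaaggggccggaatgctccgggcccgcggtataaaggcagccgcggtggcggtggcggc
DACT1: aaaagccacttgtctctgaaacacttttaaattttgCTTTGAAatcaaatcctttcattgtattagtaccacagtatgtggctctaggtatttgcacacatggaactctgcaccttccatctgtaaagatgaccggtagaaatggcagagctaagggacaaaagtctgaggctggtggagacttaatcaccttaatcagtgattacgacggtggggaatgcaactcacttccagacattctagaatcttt
A match of these letters is a description and not a measured binding site. Of the 3 genes DKK1 was up-regulated, DACT1 was not called and SP5 had too few counts to be tested.

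Of the 19 WNT ligand genes 15 were tested and 11 of them up-regulated, against 12% of all tested genes. Of these WNT2, WNT4, WNT6, WNT7B, WNT8A and WNT9B passed the filter through the treated libraries alone. WNT10B and WNT5B were higher by less, WNT5A was lower and WNT3 did not pass the test. Over all tested genes 32.9% were higher and 30% lower at the adjusted p alone. WNT3A, a ligand that activates beta-catenin signalling in many cells, lies on chromosome 1 (228006998 to 228061271, plus strand). It had normalized counts of 44.5, 17.8 and 24.1 untreated and of 178, 189.8 and 157 with VPA. The libraries of each group stood well apart, with the lowest treated value above every untreated one. This was a log2 fold change of 2.59 ± 0.19 (SE, adjusted p = 5.96e-10 in edgeR). Leaving out any one library kept this value at 2.33 to 3.05.

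WNT11, a ligand known for cell movement and polarity and for ureteric bud branching, lies on chromosome 11 (76186325 to 76210761, minus strand). It had normalized counts of 95.2, 95.3 and 85.0 untreated and of 221, 197 and 208 with VPA, so that the groups were separate. This gave a log2 fold change of 1.18 ± 0.10 (SE, adjusted p = 2.64e-09 in edgeR). WNT2B had normalized counts of 53.8, 35.6 and 38.8 untreated and of 110.2, 124 and 129 with VPA, again without overlap. The log2 fold change was 1.50 (adjusted p = 2.05e-08 in edgeR), but 2665 of its exonic bases are shared with ST7L on the opposite strand, and the strand setting of the counting is not given in the sources used here. WNT9A, the neighbour of WNT3A, had normalized counts of 54.9, 42.9 and 48.3 untreated and of 115, 89.6 and 104 with VPA. Its log2 fold change of 1.08 (adjusted p = 1.73e-06 in edgeR) was close to the threshold and was 0.988 without untreated replicate 2 and 0.991 without VPA replicate 1. WNT8B, a ligand of the developing brain, had normalized counts of 12.4, 18.8 and 33.6 untreated and of 79.5, 77.1 and 72.8 with VPA and no overlap, although the untreated values were spread widely. It had a log2 fold change of 1.82 (adjusted p = 2.52e-07 in edgeR).

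The other 6 up-regulated ligands rested on few reads in untreated cells. WNT7B, a ligand of the collecting duct, had raw counts of 5, 7 and 8 untreated and of 48, 42 and 56 with VPA. For this gene the log2 fold change was 2.72 (adjusted p = 1.45e-08 in edgeR), and the ratio of the summed counts was 6.71 with a 95% counting interval of 4.19 to 11.3. WNT9B, which induces the nephron progenitors in the embryonic kidney, had raw counts of 2, 2 and 4 untreated and of 32, 24 and 19 with VPA. The ratio was 8.62 (4.16 to 20.7) and the log2 fold change 3.05 (adjusted p = 1.27e-06 in edgeR). WNT4, which acts in the conversion of these progenitors to epithelium, had raw counts of 2, 5 and 4 untreated and of 19, 11 and 10 with VPA. Its treated libraries were the least even of the group, and the ratio was 3.34 (1.68 to 7.22), with a log2 fold change of 1.71 (adjusted p = 0.00231 in edgeR). WNT2 had raw counts of 1, 2 and 0 untreated and of 20, 18 and 22 with VPA, and 169 of its exonic bases are shared with CFTR on the opposite strand. With 3 reads in all in untreated cells its ratio of 18.4 had an interval of 5.99 to 91.6, and edgeR gave an adjusted p of 7.23e-07. WNT6 and WNT8A had log2 fold changes of 3.09 and 2.96 (adjusted p = 1.85e-06 and 1.22e-05 in edgeR) on 7 and 5 reads over the untreated libraries. The intervals are exact, at 95%, and cover counting error only. The groups did not overlap in these 6 genes, but each passed the filter through the treated libraries alone, which favoured a higher treated level. Without untreated replicate 2 the log2 fold change of WNT2 was 4.90 in place of 4.05, and without untreated replicate 1 that of WNT6 was 3.68.

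WNT5A, the ligand best known for signalling without beta-catenin and the one with the most reads, went the other way. It lies on chromosome 3 (55465715 to 55505263, minus strand) and had normalized counts of 824, 752 and 785 untreated and of 597, 577 and 578 with VPA. Every treated library was below every untreated one. The log2 fold change of -0.43 ± 0.056 (SE, adjusted p = 9.79e-07 in edgeR) kept its direction and its test in each alternative tried. Its relative WNT5B had normalized counts of 82.8, 82.7 and 88.2 untreated and of 112, 109 and 121 with VPA, all treated values above the untreated ones, with a log2 fold change of 0.43 (adjusted p = 0.00310 in edgeR and 0.0606 in DESeq2). WNT10B had normalized counts of 199, 188 and 179.5 untreated and of 267, 272 and 221 with VPA and a log2 fold change of 0.42 (adjusted p = 5.08e-04 in edgeR). WNT3 had normalized counts of 125, 162 and 127 untreated and of 135, 142 and 128 with VPA, overlapping groups. Its log2 fold change of -0.033 was smaller than the standard error of 0.11 and changed sign with the scaling, to 0.032 with the upper quartile and 0.098 with library totals.

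**Figure D3:**
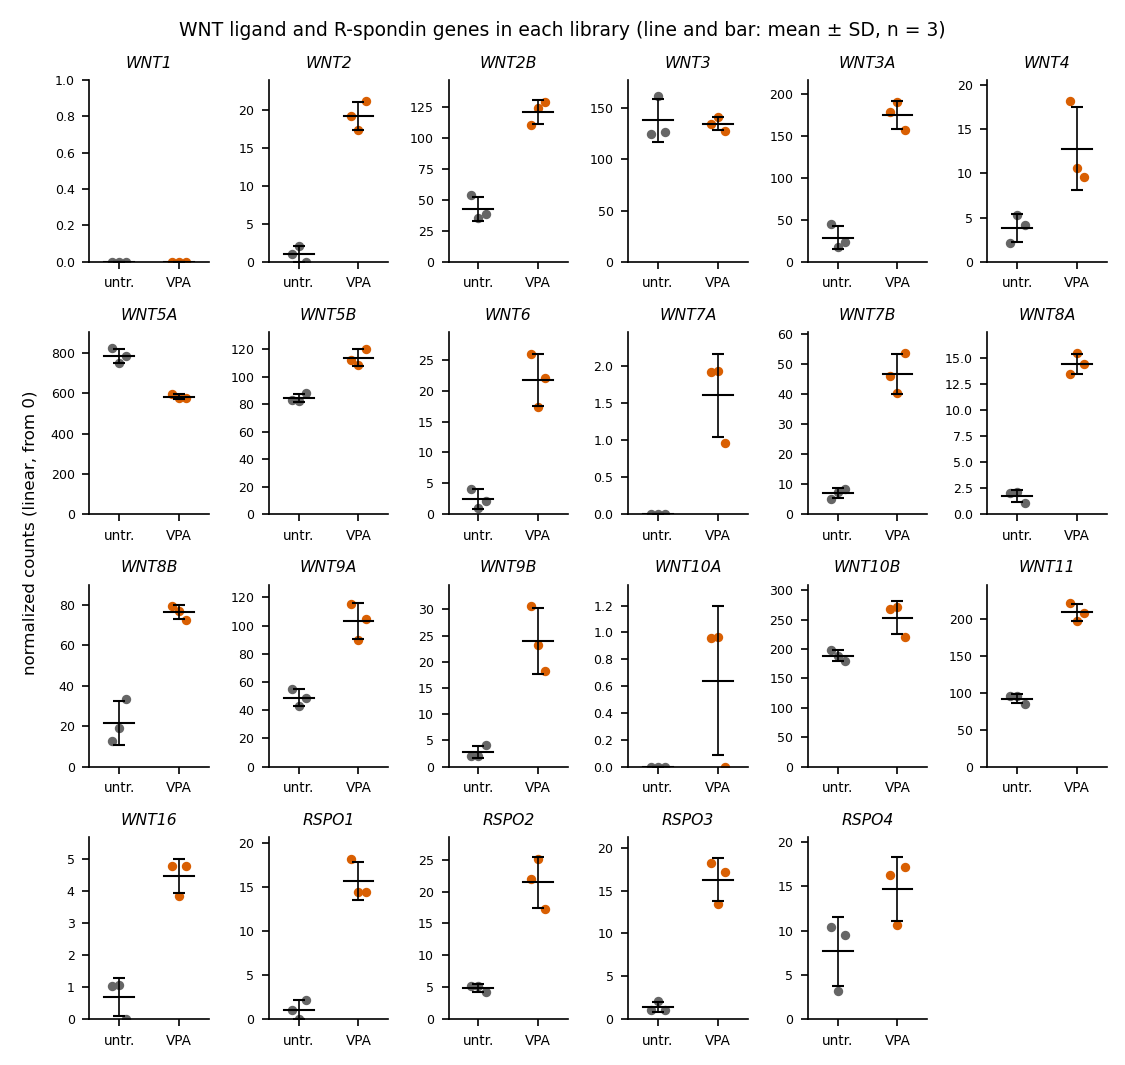
Normalized counts of the 19 WNT ligand and 4 R-spondin genes in each library, on linear axes from 0 that differ between panels; points are libraries, lines and bars the mean ± SD of 3. Treated libraries lie above untreated ones in most panels, below in WNT5A, and both groups mix in WNT3.

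The ligands not tested had very few reads. WNT16 had raw counts of 1, 1 and 0 untreated and of 5, 4 and 5 with VPA, a ratio of 6.43 with an interval of 1.48 to 58.3. WNT7A had 0 reads untreated and 2, 2 and 1 with VPA, and WNT10A had 0 and then 1, 1 and 0, in each library under the 3 reads that a count of 0 allows, so no fold is given. WNT1 was at 0 in the 6 libraries. In a fit without the filter on low counts, WNT16 had an adjusted p of 0.0207 in edgeR, and 0.109 in DESeq2.

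Several WNT genes stand in neighbouring pairs on the chromosome. WNT9A and WNT3A, 59065 bases apart on chromosome 1, were both up-regulated, though by unequal amounts (1.08 and 2.59 as log2 fold changes). WNT9B and WNT3 are 14496 bases apart on chromosome 17, with 3.05 for WNT9B and -0.033 for WNT3. WNT6 overlaps the start of WNT10A by 118 bases on chromosome 2, and WNT6 rose to 27, 18 and 23 reads while WNT10A had at most 1 read per library. WNT10B and WNT1 are 6586 bases apart on chromosome 12, and WNT1 had no read.

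Levels of different genes were compared per length, as CPM per kilobase of exon. In untreated cells WNT5A had the highest level, 5.88 ± 0.271 (SD, n = 3), followed by WNT10B with 3.88 ± 0.198 and WNT11 with 2.07 ± 0.133. In VPA-treated cells the levels were 5.20 ± 0.575 for WNT10B, 4.70 ± 0.270 for WNT11, 4.36 ± 0.0836 for WNT5A and 3.12 ± 0.296 for WNT3A. Of these WNT10B and WNT11 differed by less than 1 SD. As a share of the summed ligand level per length, WNT5A made up 35.8% ± 0.733 in untreated and 16.7% ± 0.457 in VPA-treated cells, and WNT3A 3.10% ± 1.39 and 11.9% ± 0.931 (SD, n = 3 each). The WNT11 share was 12.6% ± 0.754 and 18.0% ± 0.844. Summed over the 19 ligands, normalized counts were 1416 to 1509 in untreated and 1864 to 1977 in VPA-treated libraries.

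All 4 R-spondin genes were higher after VPA, at low counts, against 32.9% of all tested genes. RSPO1, an R-spondin of gonad development, had raw counts of 1, 0 and 2 untreated and of 19, 15 and 15 with VPA. RSPO3 had raw counts of 1, 2 and 1 untreated and of 19, 14 and 18 with VPA and RSPO2 raw counts of 5, 5 and 4 untreated and of 23, 26 and 18 with VPA. Every treated library was above every untreated one in these 3 genes, whose log2 fold changes were 3.76, 3.44 and 2.11 (adjusted p = 4.48e-06, 2.80e-06 and 1.76e-05 in edgeR). The ratios of summed counts were 15.0 (4.84 to 75.3), 11.7 (4.31 to 44.6) and 4.40 (2.45 to 8.47). RSPO4 had raw counts of 10, 3 and 9 untreated and of 17, 11 and 18 with VPA, with 10 and 11 reads at the nearest ends. Its log2 fold change of 0.93 had an adjusted p of 0.0376 in edgeR, which was 0.199 in DESeq2, 0.215 without untreated replicate 2, 0.0974 without VPA replicate 1 and 0.124 without VPA replicate 3. The 4 genes together had 10.5 to 17.6 normalized counts in untreated and 63.6 to 74.7 in VPA-treated libraries. Each passed the filter through the treated libraries alone, so the count of 4 cannot be weighed against the share of all tested genes. Without untreated replicate 3 the log2 fold change of RSPO1 was 4.61.

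Receptors changed in both directions. Of the 15 genes 14 were tested, 0 were up- or down-regulated by edgeR at both thresholds, 7 were higher and 4 lower at the adjusted p alone (32.9% and 30% of all tested genes), and the median log2 fold change was 0.14 against 0.0058 over all tested genes. DESeq2 likewise called 0 of them at both thresholds. FZD4, the receptor that also binds norrin, had normalized counts of 457, 464 and 434 untreated and of 741, 805 and 788 with VPA. The groups were clearly separate, with a log2 fold change of 0.79 ± 0.060 (SE, adjusted p = 2.23e-10 in edgeR). It shares 1399 exonic bases with PRSS23 on the opposite strand. FZD8 had normalized counts of 552, 493 and 439 untreated and of 265, 262 and 236 with VPA, which is the reverse order. This gave a log2 fold change of -0.96 ± 0.083 (SE, adjusted p = 2.13e-09 in edgeR), and without untreated replicate 3 the log2 fold change was -1.04, past the threshold.

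FZD2 had normalized counts of 338, 304 and 265 untreated and of 489, 433 and 428 with VPA, without overlap, and a log2 fold change of 0.57 (adjusted p = 3.56e-06 in edgeR). FZD6 and FZD1 had log2 fold changes of 0.46 and 0.30, both past the test in edgeR (adjusted p = 1.55e-05 and 3.79e-04). FZD7 had normalized counts of 844, 769 and 742 untreated and of 676, 650.2 and 604 with VPA. All treated values were under the untreated ones, and the log2 fold change was -0.29 (adjusted p = 3.47e-04 in edgeR). The calls of FZD3 and FZD5 were not stable. FZD3 had a log2 fold change of 0.18 (adjusted p = 0.0331 in edgeR), with adjusted p-values of 0.212 in DESeq2, 0.0769 without a filter, 0.171 without untreated replicate 2, 0.0725 without untreated replicate 3 and 0.177 without VPA replicate 2. FZD5 had -0.18 (adjusted p = 0.0129 in edgeR), with adjusted p-values of 0.103 with the upper quartile, 0.500 with library totals and 0.0593 without VPA replicate 3. FZD9 and FZD10 did not pass, with 0.0053 and -0.41, and the sign of FZD9 changed with DESeq2 size factors (-0.0086). FZD10 passed without untreated replicate 3, at -0.57 (adjusted p = 0.0396 in edgeR).

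The co-receptor LRP5, the receptor gene with the most reads, had normalized counts of 1798, 1752 and 1623 untreated and of 1984, 1843 and 1765 with VPA, with overlapping groups. Its log2 fold change of 0.11 (SE 0.051) did not pass in edgeR (adjusted p = 0.0597). The adjusted p became 0.00394 with the upper quartile, 4.81e-04 with library totals, 0.00413 with the replicate number as a block, 0.0277 with at least 10 counts in every library, 0.0239 without untreated replicate 1 and 0.0282 without VPA replicate 3. LRP6 had normalized counts of 1287, 1286 and 1288 untreated and of 1396, 1441 and 1504 with VPA, a small shift without overlap, and a log2 fold change of 0.17 (adjusted p = 0.00318 in edgeR). The R-spondin receptors LGR4 and LGR5 moved apart. LGR4 had normalized counts of 1227, 1228 and 1279 untreated and of 984, 976 and 996 with VPA, and LGR5, a stem cell marker and itself a target of the pathway, had normalized counts of 259, 184 and 239 untreated and of 321, 337 and 373 with VPA. Neither gene had overlapping groups, and the log2 fold changes were -0.34 and 0.60 (adjusted p = 2.56e-06 and 3.09e-05 in edgeR). LGR6, not tested, had raw counts of 1, 3 and 1 untreated and of 11, 6 and 6 with VPA, a ratio of 4.23 with an interval of 1.57 to 14.2.

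Of the 9 secreted inhibitor genes 6 were tested and 6 were up-regulated, against 12% of all tested genes, with log2 fold changes from 2.09 to 2.97. All 6 had means under 200 normalized counts. At such levels 29.4% (under 50) and 24.3% (50 to 200) of all tested genes were up-regulated. DKK1, which blocks LRP6 and is a target of beta-catenin, lies on chromosome 10 (52314281 to 52317657, plus strand). It had normalized counts of 22.8, 23.0 and 35.7 untreated and of 123, 112 and 113 with VPA. The lowest treated library was far above the highest untreated one. The log2 fold change of 2.09 ± 0.16 (SE, adjusted p = 4.24e-10 in edgeR) stayed at 1.97 to 2.33 without any one library. SFRP1, which binds WNT proteins outside the cell, had normalized counts of 73.5, 74.3 and 73.5 untreated and of 311, 310.2 and 332 with VPA. Both groups were tight around their means, with a log2 fold change of 2.11 ± 0.097 (SE, adjusted p = 6.10e-14 in edgeR).

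DKK3, a divergent member of the DKK family, lies on chromosome 11 (11963036 to 12009745, minus strand) and had normalized counts of 54.9, 64.9 and 63.0 untreated and of 303, 251 and 281 with VPA. The groups were separate, with a log2 fold change of 2.19 ± 0.11 (SE, adjusted p = 4.39e-13 in edgeR). The exons of DKK3 share 5681 bases with USP47 on the opposite strand, so its counts carry the limit of the unknown strand setting. WIF1, which binds WNT ligands through its own domain, had normalized counts of 12.4, 10.5 and 7.35 untreated and of 64.2, 52.0 and 63.2 with VPA, and DKK2 had normalized counts of 6.21, 8.37 and 4.20 untreated and of 36.4, 53.0 and 60.3 with VPA. In both genes every treated library was several times above the untreated ones. Their log2 fold changes were 2.55 and 2.97 (adjusted p = 4.39e-09 and 2.33e-08 in edgeR). SFRP4 had raw counts of 3, 3 and 10 untreated and of 26, 39 and 26 with VPA, with untreated replicate 3 the highest of its group. It had a log2 fold change of 2.36 (adjusted p = 9.45e-06 in edgeR), and of 3.16 without that library. DKK2 and SFRP4 passed the filter through the treated libraries alone, WIF1 through these and 1 untreated library, and DKK1, DKK3 and SFRP1 through both groups.

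Among the inhibitors with too few counts to be tested, SFRP5 had raw counts of 4, 5 and 3 untreated and of 19, 9 and 15 with VPA and SFRP2 had raw counts of 4, 2 and 3 untreated and of 7, 6 and 9 with VPA. The ratios of summed counts were 3.29 (1.71 to 6.86) and 2.25 (0.994 to 5.54). Without the filter SFRP5 had an adjusted p of 7.99e-04 in edgeR and SFRP2 of 0.123. DKK4 had 1 read in the 6 libraries. The summed normalized counts of the 9 inhibitors were 182 to 201 in untreated and 830.3 to 898 in VPA-treated libraries. Per length, SFRP1 had the highest level of them in both groups, 0.832 ± 0.00538 and then 3.59 ± 0.140 CPM per kilobase, and DKK1 the second highest, 0.653 ± 0.178 and then 2.78 ± 0.144.

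**Figure D4:**
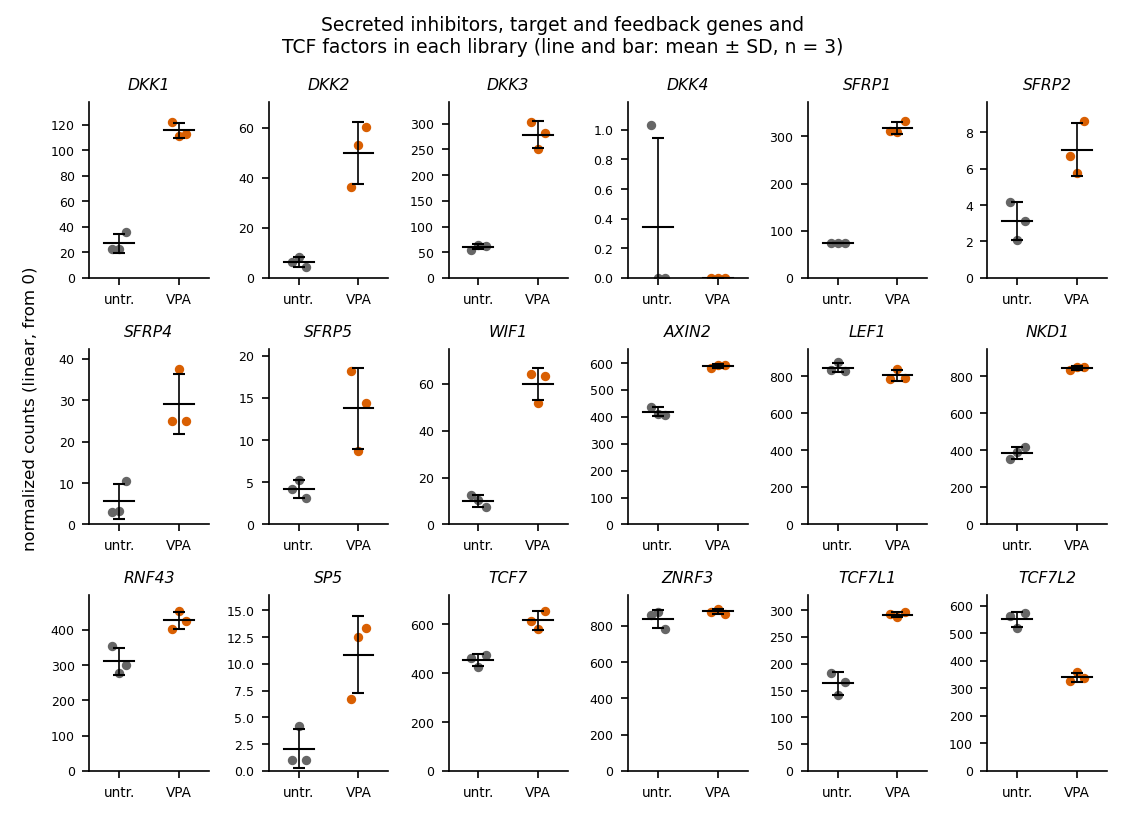
Normalized counts of the secreted inhibitors, the target and feedback genes and the TCF factors in each library, on linear axes from 0 that differ between panels; points are libraries, lines and bars the mean ± SD of 3. DKK1 lies at 22.8 to 35.7 in untreated and 112 to 123 in VPA-treated libraries, SFRP1 at 73.5 to 74.3 and 310.2 to 332, and the LEF1 and ZNRF3 groups overlap.

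Of the 8 cytoplasmic genes 7 were tested, with 2 higher (DACT3 and NKD2), 3 lower (CTNNB1, GSK3A and AXIN1) and 2 not past the test, against 32.9% higher and 30% lower over all tested genes. CTNNB1, which codes for beta-catenin, lies on chromosome 3 (41199505 to 41240443, plus strand) and had normalized counts of 14050.1, 15348 and 14714 untreated and of 11364, 11534 and 11258 with VPA. The treated libraries lay below the untreated ones and close together. This was a log2 fold change of -0.37 ± 0.042 (SE, adjusted p = 1.30e-07 in edgeR). GSK3A had normalized counts of 2799, 2582 and 2555 untreated and of 2036, 1985 and 2049.8 with VPA and AXIN1 had normalized counts of 1424, 1368 and 1332 untreated and of 1157, 1016 and 1038 with VPA, also without overlap. Their log2 fold changes were -0.39 and -0.36 (adjusted p = 1.48e-07 and 4.62e-06 in edgeR). GSK3B had normalized counts of 1579.9, 1496 and 1476 untreated and of 1434, 1487 and 1593 with VPA, overlapping groups. Its log2 fold change of -0.012 was under the standard error of 0.049 and turned to 0.12 with library totals (adjusted p = 0.0480 in edgeR), a scaling that moved the median of all tested genes to 0.14. The 3 lower genes stayed lower under that scaling too.

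The other cytoplasmic members are regulators of dishevelled, the protein that relays the signal from frizzled. DACT3, which opposes WNT signalling, had normalized counts of 64.2, 61.8 and 56.7 untreated and of 209.9, 199 and 212 with VPA. The groups were far apart, with a log2 fold change of 1.76 ± 0.11 (SE, adjusted p = 1.13e-11 in edgeR). Its relative DACT1 had normalized counts of 356, 328 and 368 untreated and of 340.2, 405 and 368 with VPA, overlapping groups, and a log2 fold change of 0.080 (adjusted p = 0.378 in edgeR). DACT2 was at 0 in the 6 libraries. NKD2, an inhibitor of dishevelled, had normalized counts of 295, 263 and 271 untreated and of 568, 525 and 548 with VPA and a log2 fold change of 0.99 ± 0.070 (SE, adjusted p = 7.19e-11 in edgeR), just under the threshold on the fold change. It passed that threshold with the upper quartile (1.05), library totals (1.12), at least 10 counts in every library (1.01), without untreated replicate 1 (1.03) and without VPA replicate 2 (1.01).

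The TCF factors went in opposite directions. TCF7L1, which mostly represses in the absence of beta-catenin, had normalized counts of 182, 141 and 166 untreated and of 292, 287 and 296 with VPA. TCF7L2, the factor of the intestinal stem cell, had normalized counts of 562, 520.2 and 573 untreated and of 326, 359 and 337 with VPA. TCF7L1 was higher and TCF7L2 lower in every treated library, with log2 fold changes of 0.84 and -0.70 (adjusted p = 6.94e-08 and 1.10e-08 in edgeR). Per length TCF7L2 had 4.38 ± 0.221 and TCF7L1 1.97 ± 0.248 CPM per kilobase in untreated cells, and 2.701 ± 0.135 and 3.52 ± 0.0533 in VPA-treated cells, so that the order of the levels was reversed. With the longest transcript in place of all exons, the treated levels were 4.46 for TCF7L2 and 5.22 for TCF7L1. LEF1 and TCF7 are the other factors of this family, and both are also targets of the pathway. LEF1 had normalized counts of 835, 874 and 828 untreated and of 787, 838 and 789 with VPA, overlapping, with a log2 fold change of -0.072 that was 0.059 with library totals. TCF7 had normalized counts of 462, 426 and 472 untreated and of 611, 579.9 and 655 with VPA, separate, with a log2 fold change of 0.44 (adjusted p = 4.73e-06 in edgeR).

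Of the 7 target and feedback genes 6 were tested and 1 was up-regulated, against 12% of all tested genes. At the adjusted p alone in edgeR 4 were higher and 0 lower, against 32.9% and 30% of all tested genes. DESeq2 made the same calls among these 6 and also called SP5. NKD1, an inhibitor of dishevelled that the pathway induces, lies on chromosome 16 (50548396 to 50649249, plus strand). It had normalized counts of 354, 391 and 417 untreated and of 832, 852 and 848 with VPA. No treated library came near the untreated ones, with a log2 fold change of 1.12 ± 0.063 (SE, adjusted p = 1.35e-12 in edgeR). AXIN2, a widely used reporter of beta-catenin signalling, lies on chromosome 17 (65528563 to 65561648, minus strand) and had normalized counts of 438, 410.3 and 408 untreated and of 582, 592 and 594 with VPA. The groups were separate, with a log2 fold change of 0.49 ± 0.061 (SE, adjusted p = 4.17e-07 in edgeR). Part of its exons, 1316 bases, belongs also to a second gene model on the same strand.

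RNF43 and ZNRF3 code for ubiquitin ligases that clear frizzled receptors from the surface. RNF43 had normalized counts of 354, 278 and 299 untreated and of 402, 453 and 425 with VPA, with a log2 fold change of 0.46 (adjusted p = 5.18e-05 in edgeR), although 4326 of its exonic bases are shared with another gene model on its strand. ZNRF3 had normalized counts of 857, 875 and 782 untreated and of 877, 892 and 866 with VPA, overlapping groups, and a log2 fold change of 0.068 (adjusted p = 0.290 in edgeR). It passed with the upper quartile and with library totals (adjusted p = 0.0399 and 0.00414 in edgeR). SP5, a transcription factor induced by beta-catenin and not tested here, had raw counts of 1, 4 and 1 untreated and of 7, 13 and 14 with VPA. All treated values were above the untreated ones, the ratio of summed counts was 5.21 (2.16 to 15.2), and the adjusted p without the filter was 2.23e-04 in edgeR and 0.0152 in DESeq2.

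Exons shared with other genes limit further counts. GSK3A has 479 bases and DACT1 378 bases in common with a gene model on their own strand. On the opposite strand RNF43 has 345 bases in common with another gene. WNT11, DKK1, FZD8, LGR5, LEF1, TCF7 and TCF7L2 each have 204 to 318 in common with a gene on the opposite strand.

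**Figure D5:**
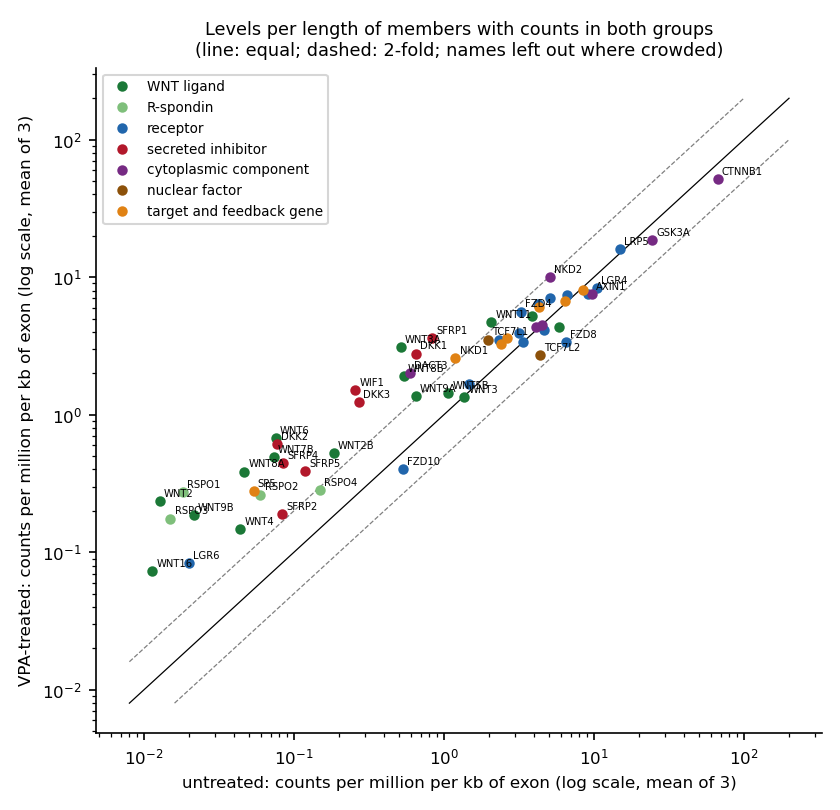
Level per length (CPM per kilobase of exon, both axes on a log scale, mean of 3 libraries) in VPA-treated against untreated cells for the members with reads in both groups; the line marks equal levels and the dashed lines a change by 2. CTNNB1 has the highest level in both groups, 66.8 and 51.7, and the points farthest above the line lie at low levels.

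Other genes of the pathway were read from lists made by role, beside 12% up-regulated, 32.9% higher and 30% lower over all tested genes. Of 12 tested genes for WNT secretion and co-receptors 3 were up-regulated and 0 down-regulated, and 10 were higher and 1 lower at the adjusted p alone. The up-regulated genes were NOTUM, an enzyme that removes the lipid of WNT proteins, KREMEN2, a partner of DKK1, and ROR2, a receptor of WNT5A. NOTUM had normalized counts of 6.21, 7.33 and 8.40 untreated and of 73.8, 58.8 and 56.5 with VPA, KREMEN2 had a log2 fold change of 1.78 and ROR2 of 1.08. For NOTUM, in which the groups were wide apart, it was 3.09 (adjusted p = 5.98e-10 in edgeR). With raw counts of 6, 7 and 8 untreated, NOTUM passed the filter through the treated libraries alone. WLS, which carries WNT proteins to the surface, had 0.29 (adjusted p = 1.26e-05 in edgeR). PORCN, GPC3, GPC4 and NDP are listed at 0 in every library, as are AMER1, PRICKLE3, SOX17, CDX1 and MMP7 of the other lists. Whether such genes were not expressed or not counted was not tested. Of 24 tested genes of the destruction complex and its transducers 1 was up-regulated, AMER2 with 3.06, and 3 were higher and 12 lower at the adjusted p alone. AMER2 had raw counts of 4, 3 and 4 untreated and of 37, 36 and 30 with VPA. It too passed the filter through the treated libraries alone. The lower genes included CSNK1D (-0.37), DVL1 (-0.24) and DVL3 (-0.21), and APC was among the higher ones (0.24). Most genes of this list had means above 1000 normalized counts. At that level the median log2 fold change over all tested genes was -0.15, and the share lower is not given here.

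Of 17 tested genes described elsewhere as WNT targets 5 were up-regulated and 0 down-regulated (12% and 0.503% of all tested genes), and 11 were higher and 4 lower at the adjusted p alone (32.9% and 30%). The up-regulated genes were EPHB2 and EPHB3, ephrin receptors of the intestinal crypt, CD44, FOSL1 and TBXT. The untreated raw counts were 12, 10 and 9 for CD44, 9, 13 and 13 for FOSL1 and 2, 2 and 4 for TBXT. In these 3 genes not every untreated library reached the minimum of 10, so they passed the filter through the treated libraries. EPHB2 had normalized counts of 409, 412 and 398 untreated and of 1055, 1067 and 1089.5 with VPA, well separated, and a log2 fold change of 1.40 (adjusted p = 5.16e-15 in edgeR). EPHB3 also had 1.40. MYC was lower (-0.17, adjusted p = 0.00102 in edgeR) and CCND1 higher (0.29, adjusted p = 1.44e-05), and both are textbook targets. BAMBI and JUN were among the lower genes, with -0.47 and -0.65. For the 3 lists the median log2 fold changes of the tested genes were 0.50, -0.16 and 0.51, in the order given. The -0.16 stands beside -0.15 over all tested genes above a mean of 1000 normalized counts.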

How the data were processed

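The RNA-seq counts of 3 untreated and 3 VPA-treated libraries (1 mM, 1 day) were used. Per the authors, SOAPnuke removed adapters and poor reads and STAR mapped the rest on hg38 (2.7.10b in the submitters' processing notes). They deposited raw counts per gene from htseq-count (2.0.1 in these notes). The annotation and strand setting are not given in the sources used here. The 5 summary lines were left out, and reads off any gene were 6.80% to 7.69% of the reads listed. The test was edgeR 4.0.16 under R 4.3.3 (TMM, filterByExpr with a minimum of 10, robust quasi-likelihood fit, condition as the term, prior count 0.125, Benjamini-Hochberg over 15298 genes). Standard errors were derived from the log2 fold change and F. The alternatives included DESeq2 1.42.0, and the test was tested on simulated data. Coordinates and promoters are from RefSeq on GRCh38.p14, exon lengths and overlaps from GENCODE. All members could be named, with values for those called and for the best counted of each role. Members and lists were chosen with earlier results of these data known. Levels per length were not tested. A count of 0 allows up to 3 reads.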

Additional observations from a re-analysis of the deposited data

How the results depend on the processing

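The 22 up-regulated members became 11 of 41 tested with at least 10 counts in every library, which leaves out genes with few counts in either group. Under that filter 25 members were higher and 9 lower at the adjusted p alone, against 4489 and 4154 of all 13882 tested genes. The share of all genes up-regulated under it is not given here. At a mean of 50 or more normalized counts 9 of 39 members were up-regulated, against 7.56% of all genes at that level. This alternative was chosen after seeing the data and left 23 of the 37 higher members. The other counts of members in edgeR and DESeq2 stayed within 1.5 times. Without one library at a time, 22 to 26 members were up-regulated, 0 to 1 down-regulated (FZD8, without untreated replicate 3), 37 to 40 higher and 8 to 10 lower. Single members changed direction when close to 0. FZD9 was -0.019 with DESeq2, -0.0086 with DESeq2 size factors, -0.016 without a filter and -0.087 to 0.079 with a library left out. GSK3B was 0.053 with the upper quartile, 0.12 with library totals, 0.010 with at least 10 counts in every library and -0.056 to 0.021 with a library left out. WNT3 was 0.032, 0.098 and -0.11 to 0.090 with the upper quartile, library totals and a library left out, and LEF1 was 0.059 with library totals. Of 743 comparisons over 54 members 692 kept direction and side of both thresholds, 20 were stronger, 15 weaker and 16 reversed. Among all tested genes past the adjusted p, 52.3% were higher with TMM, 63.0% with the upper quartile and 73.9% with library totals, and the last moved the median log2 fold change to 0.14. The replicate block gave 22 up-regulated, 0 down-regulated, 38 higher and 9 lower members, with LRP5 added (adjusted p = 0.00413 in edgeR), and changed no other call. Deviations of same-numbered libraries correlated with r of 0.242, 0.0561 and 0.166 over all tested genes, and of 0.364, 0.111 and 0.278 over the 12196 with a mean of 50 or more normalized counts, each the best of its library. Not every r passed 0.1 over all tested genes, so the fit without the block was kept, but the second set did pass, and whether the numbers pair the libraries is not settled by these values. With the longest transcript as length, 64 of the levels per length moved by more than 1 SD and 64 did not. The number of libraries and, for ligands and R-spondins, the few reads in untreated cells limit the precision.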

Other observations

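Genes of the branches of WNT signalling that do not use beta-catenin were followed too. Of 31 tested genes of planar cell polarity and the calcium branch 4 were up-regulated and 0 down-regulated in edgeR at both thresholds (12% and 0.503% of all tested genes), and 19 were higher and 5 lower at the adjusted p alone (32.9% and 30%), with a median log2 fold change of 0.26. The up-regulated genes were NFATC4 and NFATC2, transcription factors activated by calcineurin, PRICKLE2, a polarity protein, and CAMK2B, a calcium-dependent kinase. NFATC4 had normalized counts of 307, 269 and 295 untreated and of 884, 722 and 773 with VPA, with no overlap, and a log2 fold change of 1.45 (adjusted p = 8.51e-13 in edgeR). PRICKLE2, NFATC2 and CAMK2B had 1.84, 2.12 and 1.25. NFATC2 had raw counts of 10, 15 and 21 untreated and of 74, 69 and 76 with VPA. The 10 reads of untreated replicate 1 did not pass the filter on low counts, so NFATC2 passed it through the treated libraries. CELSR2, CELSR3 and VANGL2 of the polarity core were higher, with 0.41, 0.63 and 0.26, and VANGL1 was lower (-0.18).

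The nuclear partners of beta-catenin and the corepressors TLE1 to TLE4, which hold TCF targets silent, changed in both directions. Of 18 tested genes 1 was up-regulated (12% of all tested genes), 4 were higher and 9 lower at the adjusted p alone in edgeR (32.9% and 30%), with a median of -0.12. Most of these 18 had means above 1000 normalized counts, where the median over all tested genes was -0.15. TLE4 had normalized counts of 4055, 4181 and 4068 untreated and of 2403, 2350.4 and 2273 with VPA, all treated values far below, and a log2 fold change of -0.81 (adjusted p = 2.02e-13 in edgeR). TLE3 and TLE1 were lower by less (-0.58 and -0.45), whereas TLE2, the one gene up-regulated, had normalized counts of 89.0, 87.9 and 72.4 untreated and of 276, 246 and 249 with VPA and a log2 fold change of 1.63 (adjusted p = 2.08e-11 in edgeR). TLE5, which is not among these 4 corepressors, was higher (0.17, adjusted p = 0.00348 in edgeR). The acetyltransferase genes CREBBP and EP300 had -0.52 and -0.22.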
